A study of Homo sapiens with 5 samples.

Results

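Keratins, plakin cross-linkers and desmosome proteins were examined in HEK293, an established line of human embryonic kidney origin. The members were 10 of the 14546 genes tested, KRT8, KRT18, KRT19, KRT7, EPPK1, PLEC, DSP, JUP, PKP2 and DSG2, and every probe set annotated to them was taken, 21 of the 54613 probe sets in the table that were not controls. Of these, 14 reached a signal of 100 on at least 2 arrays and were tested among 33818, and each of the 10 genes kept at least 1. The genes were chosen on their families after results of the same comparison between arrays were known, so the values of these genes are given as a description and support no claim about the family.

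The 3 vector arrays carry RNA from cells stably transfected with empty pcDNA4, and the 2 arrays labelled PRL-1 carry RNA from cells stably transfected with pcDNA4-PRL-1. PRL-1 is a prenylated tyrosine phosphatase encoded by PTP4A1. All cells were HEK293, grown under the same conditions in DMEM with fetal bovine serum. The sources used here do not say whether a line is a single clone, and each group is a single stable line, so an effect of the construct and a difference of other origin between the lines cannot be told apart. The comparison asks which transcripts differ in cells that carry the PRL-1 construct.

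PTP4A1 was not called in any of its 4 tested probe sets, whose log2 differences lay between 0.06 and 0.15 with a highest upper bound of 0.44. The sample titles call the line a stable PRL-1 transfectant, and the authors describe it as overexpressing PRL-1. Whether these probe sets match the transcript of the construct was not tested, and each direction below is that of the arrays labelled PRL-1. Vector replicate 3 stood apart, with correlations of 0.938 to 0.947 to the other arrays, which correlated at 0.954 to 0.964 with each other. As markers of the line, NEFL, VIM, INA and PAX2 had a probe set above 100 on every array, whereas NEFM stayed below 100. All 6 simple epithelium markers (KRT8, KRT18, KRT19, KRT7, CDH1 and EPCAM) had such a probe set. Markers of stratified epithelium were mostly dim apart from KRT10, since KRT14 reached at most 24.6, while KRT5 and DSG3 passed 100 on a single array each. Among fibroblast, endothelial and blood markers, PTPRC and CDH5 were under 100 on every array and VWF above it on a single array. COL1A1, DCN, PECAM1, CD3E and HBB each had a probe set above 100 on every array. DCN, PECAM1 and HBB also had probe sets that never reached it. The summed signals of fibroblast markers were 1468 to 1692 for vector and 1258 and 1673 for PRL-1. Those of endothelial markers were 462.5 to 750 against 404.5 and 421, and those of blood markers 692.4 to 1060 against 669.9 and 702.8. None of these 3 sums was higher on both PRL-1 arrays than on all vector arrays. The sum of the simple epithelium markers, 4 of which are members, was higher, at 21251 and 20444 against 14917 to 17702. That of the HEK293 markers was lower, at 45662 and 45864 against 47184 to 54796. Bright genes weigh most in such a sum. Within the HEK293 markers VIM was 0.69-fold and PAX2 0.593-fold, while NEFL was 1.01-fold and INA 1.21-fold. Within the simple epithelium markers EPCAM, the brightest, was 1.34-fold, and the others lay between 0.968-fold (KRT7) and 2.36-fold (CDH1). The part of these shifts in the results below was not tested. In bulk RNA, fewer cells of a type and less RNA per cell cannot be told apart.

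Keratins are the intermediate filaments of epithelial cells. An acidic type I chain (KRT18 and KRT19) pairs with a basic type II chain (KRT8 and KRT7), and in simple epithelia KRT8 and KRT18 are the usual pair. Plakins are large proteins that tie these filaments together or anchor them at the membrane. At desmosomes, cadherins such as DSG2 join neighbouring cells, the armadillo proteins JUP (plakoglobin) and PKP2 (plakophilin 2) bind their tails, and DSP (desmoplakin) links this plaque to keratin.

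Among the 14 tested probe sets, 11 had a higher mean on the arrays labelled PRL-1 and the median log2 difference was 0.25, beside a median of -0.04 over all tested probe sets, of which 44.9% were above 0. In 6 of the 14 both PRL-1 arrays exceeded all vector arrays, where the share over all probe sets was 12.8%. In 0 of the 14 did both lie below, where the share was 16.1%. With limma, fitted across all 33818 probe sets with Benjamini-Hochberg adjustment, 1 of the 14 was called higher, an EPPK1 probe set, beside 0.0591% of all probe sets, and nothing is read from these counts because the genes were chosen with this comparison known. At an unadjusted p under 0.05 there were 5 member probe sets, beside 9.72% of all probe sets.

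**Figure D1:**
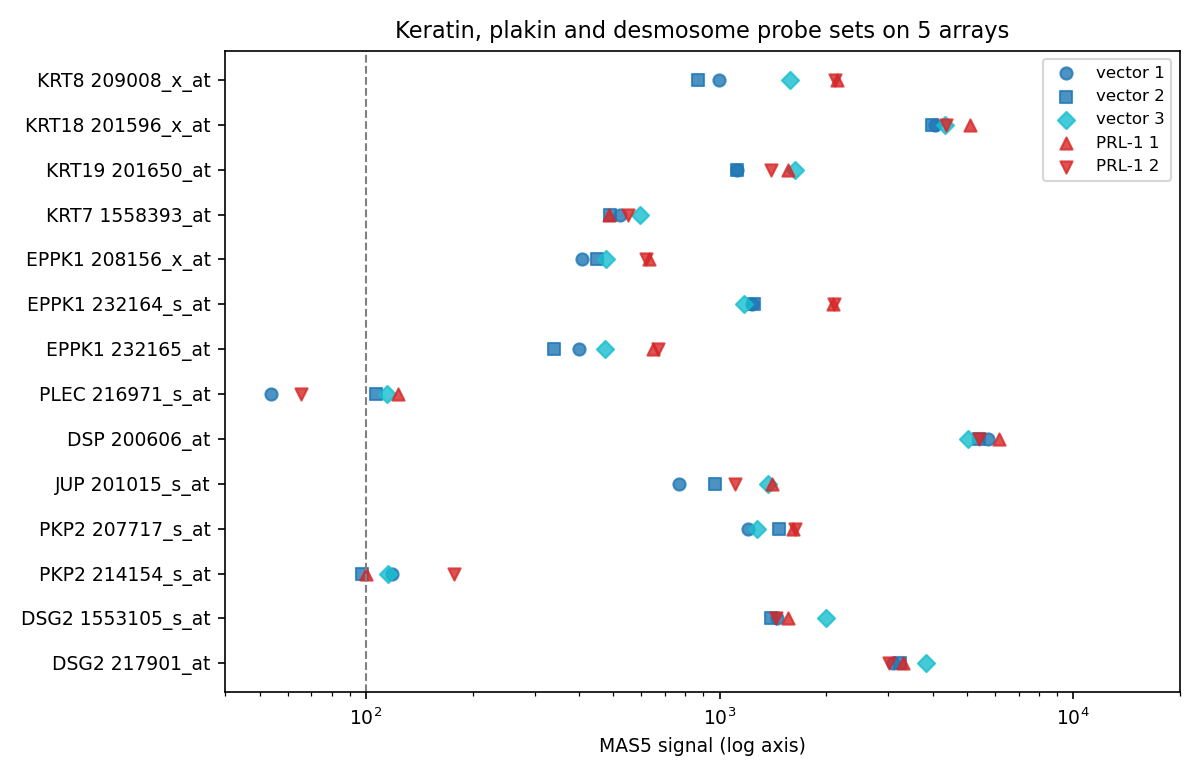
MAS5 signal (log axis) of the 14 tested probe sets on vector replicates 1 to 3 (blue circle, blue square, cyan diamond) and on the arrays labelled PRL-1 (red triangles), with a dashed line at a signal of 100. KRT8 and the 3 EPPK1 probe sets separate the groups, while vector replicate 3 lies nearest to the red points for KRT8, and PLEC straddles the dashed line.

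KRT8, the type II chain of simple epithelia, had the largest difference of these genes over the 5 arrays, though without vector replicate 2 its log2 difference of 0.76 was below the 0.81 of an EPPK1 probe set. Vector replicates 1, 2 and 3 had KRT8 signals of 998.8, 867 and 1583, and the arrays labelled PRL-1 had 2141 and 2116. Both PRL-1 arrays were above every vector array, and vector replicate 3 was well above the other vector arrays. The means were 1150 ± 381 (SD, n = 3) and 2128 ± 17 (SD, n = 2), a difference of 1.92-fold with a 95% interval of 1.34 to 2.74, not called (limma adjusted p = 0.257). Without vector replicate 3 the log2 difference was 1.19 in place of 0.94 and KRT8 was called (limma adjusted p = 0.00163). That fit called 3 of the 14 probe sets, the others being from EPPK1, beside 0.485% of all probe sets called higher. Without vector replicate 1 or vector replicate 2 KRT8 was not called (limma adjusted p = 0.393 and 0.435). With PRL-1 replicate 1 or PRL-1 replicate 2 left out, its log2 difference was 0.93 or 0.95. Over the 14 alternative settings KRT8 was called in 3.

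KRT18, the type I partner of KRT8, moved less. Its signals were 4062, 3981 and 4340 on the vector arrays and 5090 and 4369 on the arrays labelled PRL-1. The groups did not overlap, but PRL-1 replicate 2 exceeded vector replicate 3 only narrowly. The difference was 1.14-fold with a 95% interval of 0.954 to 1.37 (limma adjusted p = 0.629). Taken within each array, the log2 ratio of KRT8 to KRT18, set to an average of 0 for the vector arrays, came to -0.13, -0.31 and 0.44 there and to 0.64 and 0.85 for PRL-1. The ratio of KRT8 to KRT18 on the PRL-1 arrays was thus 1.68-fold that of the vector average. The log2 ratio had an SD of 0.39 over the vector arrays, and vector replicate 3 came close to PRL-1 replicate 1.

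Both partners are read here through probe sets of the _x_at kind, a suffix the manufacturer gives where probes can also match other transcripts. The RefSeq gene table of GRCh38.p14 names 52 pseudogenes of KRT8 and 68 of KRT18, so transcripts of such copies could share these signals, and their part was not tested. In that table KRT8 and KRT18 are neighbouring coding genes on chromosome 12, as EPPK1 and PLEC are on chromosome 8.

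KRT19 is a type I keratin that lacks most of the tail domain. Its tested probe set gave 1119, 1119 and 1638 on the vector arrays and 1564 and 1397 on the arrays labelled PRL-1. The groups overlapped because vector replicate 3 was the highest of all arrays. The difference was 1.16-fold with a 95% interval of 0.873 to 1.55. The other KRT19 probe set lay between 4.53 and 18.7 on every array, and no fold is given for it.

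KRT7, a type II keratin of ducts and other simple epithelia, gave conflicting detection. The tested probe set had signals of 521.3, 489.6 and 596.9 on the vector arrays and 486.5 and 549.6 on the arrays labelled PRL-1. These overlapped, at 0.968-fold with a 95% interval of 0.754 to 1.24. The other 3 KRT7 probe sets stayed below a signal of 100 on all arrays, the highest value being 56.5 on PRL-1 replicate 2. Which of the KRT7 probe sets reads the keratin transcript was not tested.

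EPPK1 (epiplakin), a plakin built of plakin repeat domains that binds keratin filaments, was read by several probe sets that lay apart in the same direction. They are called here by the suffix of their identifier, which the plots print in full. The _s_at probe set gave 1233, 1250 and 1171 on the vector arrays and 2094 and 2107 on the arrays labelled PRL-1. The vector arrays differed little from each other, and vector replicate 3 was the lowest here. The signal rose 1.73-fold with a 95% interval of 1.45 to 2.06 (limma adjusted p = 0.0409). This call was lost under 9 of 14 alternative settings, among them the removal of vector replicate 1 (adjusted p = 0.175), vector replicate 2 (0.183), PRL-1 replicate 1 (0.535) or PRL-1 replicate 2 (0.455), while the log2 difference stayed between 0.76 and 0.92.

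The other tested EPPK1 probe sets were higher without a call. Signals of the _at probe set were 399.6, 339.1 and 474.6 on the vector arrays against 646.3 and 668.3, and those of the _x_at probe set were 409, 449.1 and 477.4 against 631.7 and 619.2. In both the groups were apart, by 1.64-fold (95% interval 1.24 to 2.17) and 1.41-fold (1.11 to 1.78). Averaged over the 3 probe sets, the log2 deviation from the vector average came to -0.03, -0.06 and 0.1 for vector and to 0.66 and 0.67 for PRL-1. The 3 probe sets come from the same gene and arrays and are not replicates of each other. The _x_at probe set carries the suffix described above for KRT8 and KRT18. Whether any of the 3 also reads other transcripts was not tested. Another 2 EPPK1 probe sets remained below 100 on every array.

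PLEC (plectin), which cross-links intermediate filaments with actin and microtubules, was close to background. Its tested probe set read 53.8, 106.7 and 114.5 on the vector arrays and 123.3 and 65.3 on the arrays labelled PRL-1. The arrays of both groups fell on either side of 100, so no fold is given. Its other probe set stayed between 15.4 and 28.2.

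DSP, the plakin of the desmosome plaque, had bright and steady signals. The DSP probe set gave 5752, 5414 and 5046 on the vector arrays and 6165 and 5424 on the arrays labelled PRL-1. The groups overlapped, and the difference of 1.07-fold had a 95% interval of 0.893 to 1.29. A change in DSP beyond that interval was therefore not seen at this number of arrays.

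**Figure D2:**
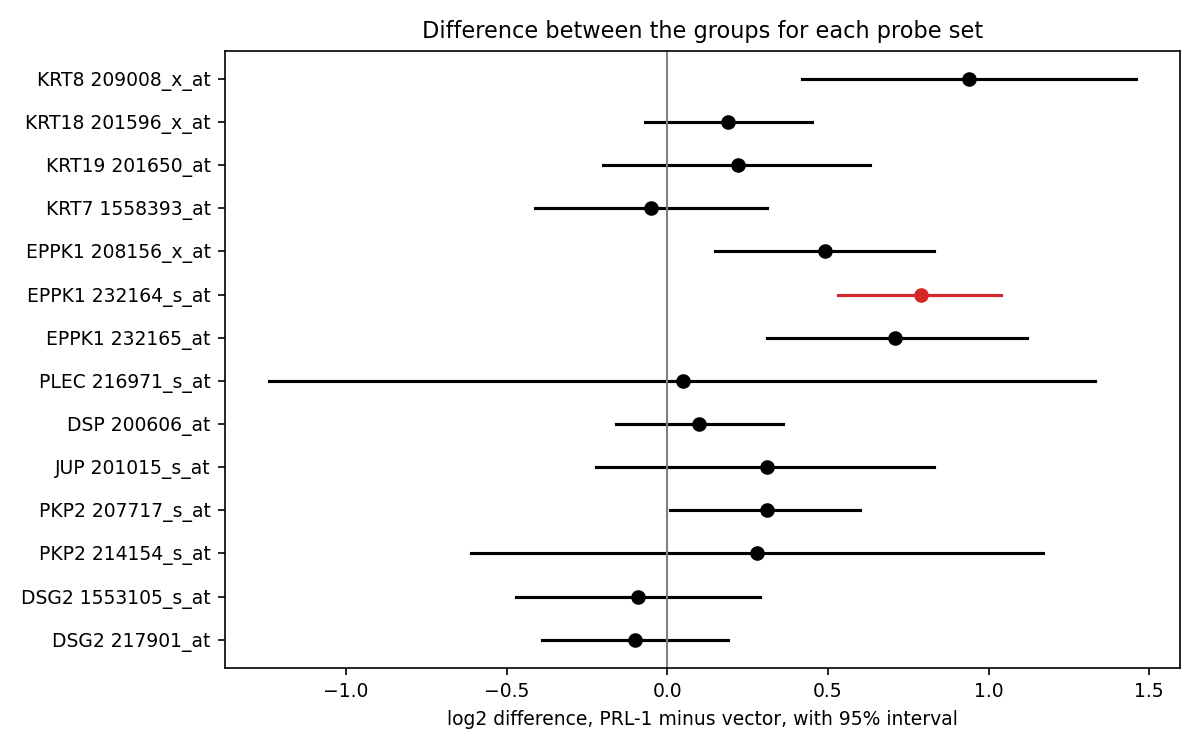
Log2 difference between the arrays labelled PRL-1 and the vector arrays (dot) with its 95% interval from limma (line) for the 14 tested probe sets, the called EPPK1 probe set in red. The intervals of KRT8, the 3 EPPK1 probe sets and the brighter PKP2 probe set lie above 0, and those of all other tested probe sets cross it.

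In the desmosome plaque, JUP varied within the groups as much as between them. JUP signals were 767.8, 967.6 and 1367 on the vector arrays and 1402 and 1102 on the arrays labelled PRL-1. Vector replicate 3 lay between the PRL-1 arrays. The difference of 1.24-fold had a 95% interval of 0.86 to 1.78.

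PKP2 was narrowly apart in its brighter probe set. Its signals were 1206, 1473 and 1273 on the vector arrays and 1611 and 1634 on the arrays labelled PRL-1. The PRL-1 arrays were above all vector arrays, at 1.24-fold with a 95% interval of 1.01 to 1.51, without a call (limma adjusted p = 0.491). Its dimmer probe set overlapped, at 97.3 to 118.1 on the vector arrays and 100.2 and 177.4 on those labelled PRL-1.

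DSG2, the desmosomal cadherin of simple epithelia, gave overlapping groups in both probe sets. Signals of the brighter were 3091, 3242 and 3840 on the vector arrays and 3300 and 3010 on the arrays labelled PRL-1, a 0.934-fold difference with a 95% interval of 0.763 to 1.14. The dimmer gave 1453, 1401 and 1998 against 1559 and 1443, at 0.94-fold (0.723 to 1.22). Vector replicate 3 was the highest array in both.

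Since vector replicate 3 recurs above, its place was set against the other vector arrays. Over the 14 probe sets it exceeded the mean log2 signal of vector replicates 1 and 2 in 11, with a median of 0.26, whereas over all tested probe sets the median was 0.11 with quartiles of -0.18 and 0.43. Leaving aside PLEC, which was near background, the excess was largest for KRT8 at 0.77, followed by JUP at 0.67 and KRT19 at 0.55. The EPPK1 _s_at probe set, DSP and the brighter PKP2 probe set were below that mean, at -0.08, -0.15 and -0.07. Vector replicate 3 was the farthest from the vector average for KRT8 and KRT19, whereas for JUP replicate 1 departed almost as far in the other direction, at -0.39 against 0.44.

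**Figure D3:**
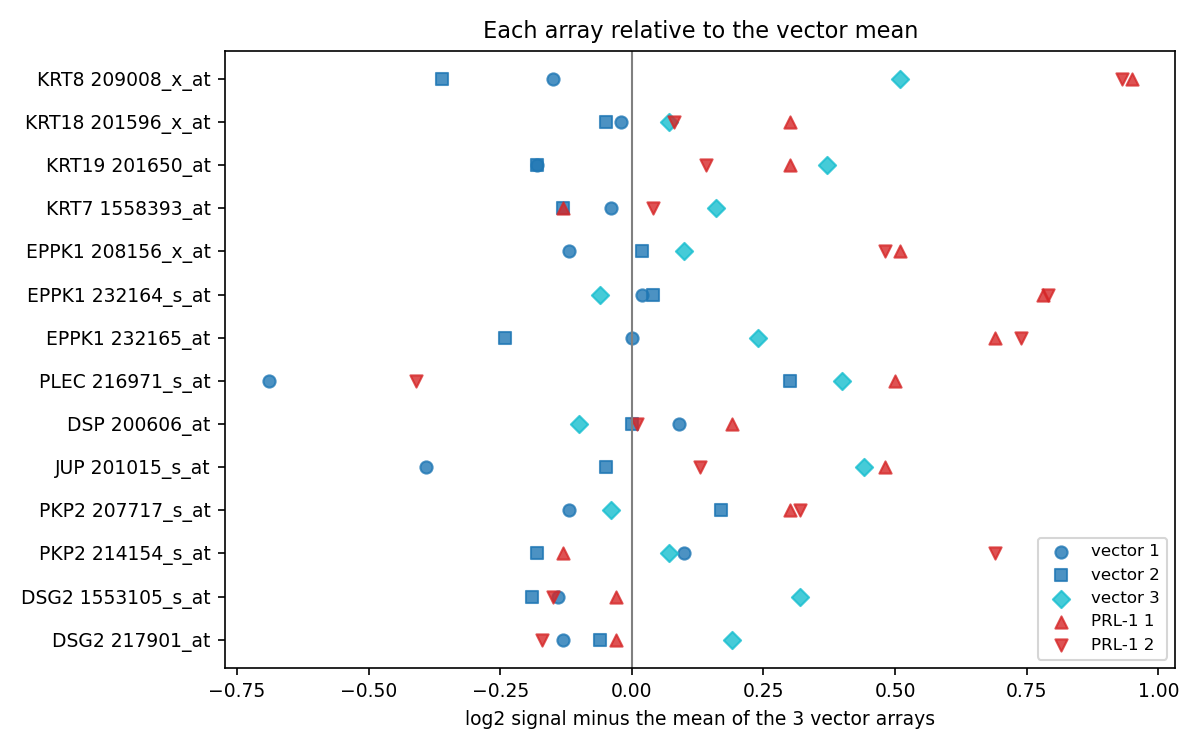
Log2 signal of each tested probe set minus the mean of the 3 vector arrays, for vector replicates 1 to 3 (blue circle, blue square, cyan diamond) and the arrays labelled PRL-1 (red triangles). Vector replicate 3 is at 0.51 for KRT8 and 0.44 for JUP, and at -0.06 for the EPPK1 _s_at probe set, whose PRL-1 arrays are at 0.78 and 0.79.

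No other gene of the same structures was called. Over 64 measured genes in 8 lists, each read through its tested probe set with the highest mean, limma called 0, beside 0.247% of all 14546 genes, and 10 genes had an unadjusted p under 0.05 (15.6%, beside 11.4% of all genes). The methods' t-test also called 0, but it called 0 of all probe sets and so adds nothing here. The median over all genes was -0.03.

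Of 16 other keratins measured, 0 were called and 7 were above 0, with a median log2 difference of -0.09. KRT1, a type II keratin of the suprabasal epidermis, was nearest to a call among them, with 75.7, 71.5 and 82.9 on the vector arrays and 131.7 and 162.4 on those labelled PRL-1 (limma adjusted p = 0.516). All vector signals of KRT1 lay under 100, so the fold is only a bound, at least 1.46-fold. KRT10, its type I partner, gave 1.05-fold. The hair keratins KRT85 and KRT38 and the palm and sole keratin KRT9 gave -0.84, -0.61 and -0.43 on the log2 scale (adjusted p from 0.529 to 0.591). On the arrays labelled PRL-1, KRT85 read 161.5 and 71.2 and KRT38 118.5 and 171.7. These lie near or under 100, so the sizes for KRT85 and KRT38 are not firm. A further 24 keratins did not reach 100 on at least 2 arrays.

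The other plakins gave a median of -0.15 over 3 measured genes. MACF1 and DST, which link actin with microtubules or intermediate filaments, gave 0.903-fold and 1.04-fold. PPL (periplakin) read 128.5, 23.3 and 173.7 on the vector arrays and 54.2 and 12.6 on those labelled PRL-1, overlapping and partly under 100. Of 6 other desmosome genes, 3 were above 0 and the median was -0.02. PKP4, a relative of PKP2, was 1.21-fold and PERP, a tetraspan protein of desmosomes, 1.17-fold on the arrays labelled PRL-1, with adjusted p of 0.515 and 0.553. PKP3 gave -0.33 from overlapping groups, and PKP1 overlapped near background, with both PRL-1 arrays under 100, so no size is given for it. For the desmosomal cadherins DSC2 and DSC3 the folds were 1.01 and 0.968.

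Among 9 other intermediate filament genes, 4 had an unadjusted p under 0.05, and they did not go the same way. VIM (vimentin), the filament of mesenchymal cells and of most cultured lines, gave 16971, 18340 and 23975 on the vector arrays and 13481 and 13501 on those labelled PRL-1, 0.69-fold with a 95% interval of 0.541 to 0.881 (limma adjusted p = 0.314). Vector replicate 3 was again the highest array. PRPH (peripherin), a filament of peripheral neurons, gave 0.714-fold and LMNA, the A-type nuclear lamin, 0.745-fold (adjusted p = 0.461 and 0.474). LMNB1, a B-type lamin, gave 1.37-fold (adjusted p = 0.448). NEFL, the light neurofilament chain, gave 1.01-fold.

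Proteins that bind or modify keratins, as a list of 7, had a median of 0.02. YWHAZ, a 14-3-3 protein, gave 1.23-fold (adjusted p = 0.455) and TCHP, a keratin-binding protein of centrosomes and desmosomes, 0.902-fold (0.736). SFN (stratifin), a 14-3-3 protein of epithelia, gave 1.03-fold, and PNN, a nuclear and desmosome-associated protein, 1.02-fold. In the hemidesmosome list, ITGA6 gave 0.969-fold and CD151, its tetraspanin partner, 1.18-fold.

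In the list of adherens junctions and armadillo proteins, CDH1 had the smallest adjusted p of the 8 measured genes. CDH1, the cadherin of epithelial adherens junctions, gave 158.2, 188.2 and 186.4 on the vector arrays and 403.1 and 431.5 on those labelled PRL-1, a 2.36-fold difference with a 95% interval of 1.7 to 3.26 (limma adjusted p = 0.0871). The groups were apart and vector replicate 3 did not stand out. Another CDH1 probe set stayed under 100 on every array, between 23.5 and 90.4. VCL and AFDN, which tie junctions to actin, gave 0.874-fold and 0.916-fold, and CTNND2 had overlapping signals near 100. The list median was 0.01.

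Regulators and markers of epithelial identity, 13 measured, had a median of -0.16, and 4 had an unadjusted p under 0.05. EPCAM, an epithelial adhesion molecule, gave 8293, 8272 and 9359 on the vector arrays and 11567 and 11581 on those labelled PRL-1 (1.34-fold, adjusted p = 0.278). ESRP1, an epithelial splicing regulator, read 25, 82.8 and 139.9 against 265.2 and 218.6, with a wide interval of 1.27 to 10.5-fold. The repressors ZEB1 and TWIST1 gave 0.579-fold and 0.45-fold (limma adjusted p = 0.082 and 0.0929). All other genes of this list had overlapping groups, among them GRHL1 (log2 -0.19), ELF3 (-0.16), ZEB2 (-0.16) and KLF4 (0.2). Of the 13, 4 were above 0. Without vector replicate 3 the number called over the 64 genes was 4 (CDH1, EPCAM, ZEB1 and TWIST1), beside 1.36% of all genes in that fit.

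**Figure D4:**
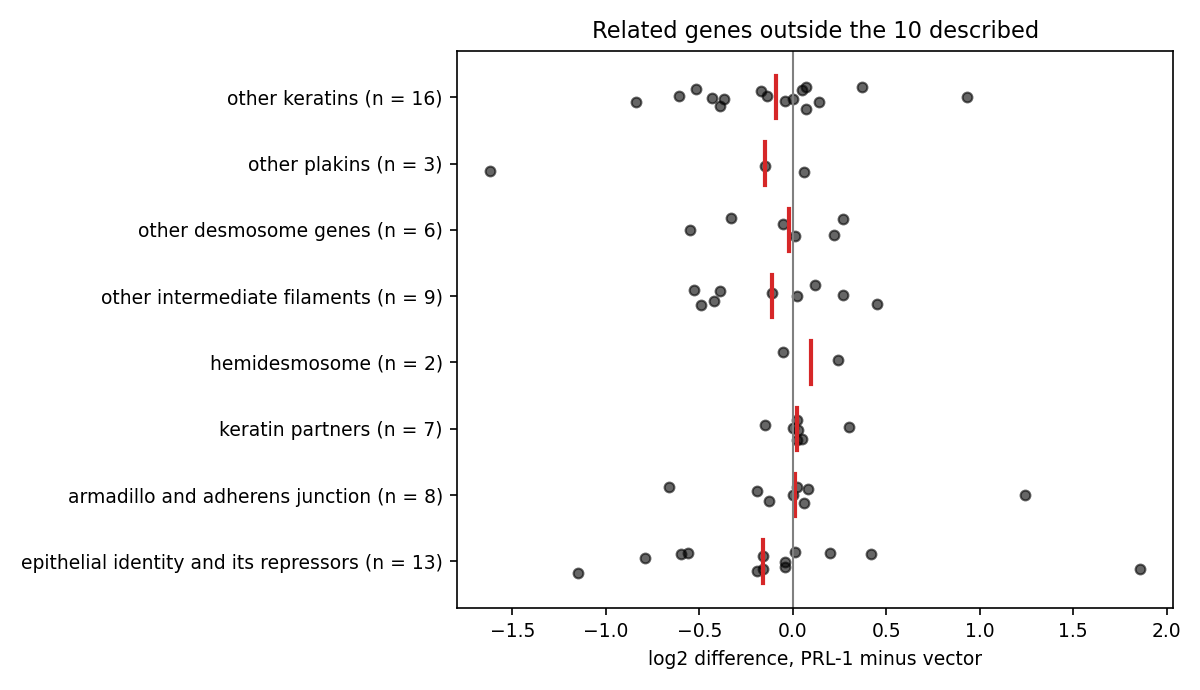
Log2 difference between the arrays labelled PRL-1 and the vector arrays for the measured genes of each related list (dots, spread vertically for display), with the list median in red and the number of genes in brackets. The medians lie between -0.16 and 0.1, and the highest dots are ESRP1 at 1.86 and CDH1 at 1.24.

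The genes whose pattern over the 5 arrays was nearest to that of KRT8, by the root mean square difference of log2 signals centred on their own mean, were JAG2 (0.0612), MAP1LC3A (0.0674) and SYTL5 (0.0968). For the EPPK1 _s_at probe set they were SYCP2 (0.0372), EPC1 (0.0397) and FMR1 (0.0471). All vector signals of SYCP2 lay under 100. These genes were picked for their likeness on the same arrays, so nothing further is read from it.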

How the data were processed

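The values deposited by the authors were linear intensity signals of HG-U133 Plus 2.0 arrays, computed by MAS5 with the defaults of the affy library. MAS5 corrects each probe with its mismatch, takes a robust mean per probe set and scales the array, which here gave a trimmed mean of 500 on each array. The authors had removed another PRL-1 array whose PRL-1 transcript was not elevated in their qRT-PCR.

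Probe sets were named by the platform annotation, updated by gene identifier to GRCh38.p14, where 41091 of 54613 had 1 symbol, 1801 had several and 11721 were unlisted. Probe sets with a signal of at least 100 on at least 2 arrays were tested. The fit to log2 signals used limma 3.58.1 under R 4.3.3, with group as the only term, lmFit and eBayes with an intensity trend, two-sided. Benjamini-Hochberg adjusted p at or below 0.05 over all tested probe sets was a call. The fit was tested on simulated data. Detection calls were not used here, and signals under 100 were treated as near background. A bound sets a group whose arrays all lie under 100 to 100.

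The 10 genes, the related lists and the alternatives were chosen with earlier results of these data known. Named genes were all probe sets of the 10, up to 4 genes per list with the smallest adjusted p, and the 3 nearest patterns to KRT8 and to EPPK1, beside genes named in passing after their values were seen. Tried instead were other filters (none, or 200), 32 added before the log, median centring, quantiles, array weights, a block by replicate number, a fit lacking the trend, omission of each array and the methods' t-test. Precision is limited by the number of arrays. The labels call the arrays biological replicates and the methods name independent cultures of each line. The p-values thus measure the spread between cultures.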

Additional observations from a re-analysis of the deposited data

How the results depend on the processing

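Over 14 alternatives, 9 of the 14 tested probe sets kept the sign of their difference (KRT8, KRT18, KRT19, the 3 of EPPK1, DSP, JUP and the brighter PKP2 probe set), and the other 5 (KRT7, PLEC, the dimmer of PKP2 and both of DSG2), none of them called, took either sign. The EPPK1 call was lost without the filter (adjusted p = 0.0672), after quantile normalization (0.0656), after median centring (0.191), without the trend (0.335) and with the methods' t-test (0.172), each leaving 0 of the 14 probe sets called, beside the losses when an array was left out. With array weights 3 were called (KRT8 at adjusted p = 0.00783). With the replicate block 3 were called (KRT8 at 0.000799), but same-numbered arrays shared little (correlations of deviations of 0.064 and -0.059 for the numbers 1 and 2), so the numbers only name the arrays, and vector replicate 3, which has no partner, does not enter the block's difference. Leaving out each array gave 0 to 3. Over all probe sets the number called was 65, against 448 with the block, 275 with array weights, 9 without the trend and 0 with the methods' t-test, and 11 to 313 when an array was left out. The related genes gave 0 calls, but 1 (CDH1, adjusted p = 0.0203) after median centring, 4 with the block, 4 with array weights and 0 to 4 when an array was left out. Median centring moved the median over all probe sets from -0.04 to 0.09. Causes were not tested. Where 1 array labelled PRL-1 remained, its spread was taken from the vector arrays. Signals near 100 (PLEC, KRT1, KRT85, KRT38, PKP1, PPL, ESRP1) carry no firm size.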
